A study of Mus musculus with 10 samples.

Results

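Neutrophil genes were followed in bulk RNA-seq of 10 mouse livers through 10 transcripts, which were picked by symbol from the 55291 genes of the deposited count table. They comprised 5 genes of mature neutrophils (S100a8, S100a9, Csf3r, Retnlg and Cxcr2), 3 genes of secondary granule proteins (Ngp, Ltf and Camp) and 2 genes of primary granule proteins (Mpo and Elane). All mice were adult female Cas9 Lox-Stop-Lox animals, which make Cas9 once Cre has removed a stop cassette, and all received an AAV8-U6-sgRNA-TBG-Cre vector. The guide was either a non-targeting control (NTC) or directed at Bap1 (sgBap1), a deubiquitinase gene. After 10 days the mice were given the hepatotoxin carbon tetrachloride (CCl4) in olive oil or olive oil alone (Veh), and the right liver lobe was taken 48 h later. Each guide had 2 livers with Veh and 3 with CCl4. The TBG promoter is active in hepatocytes, so the guide was aimed at hepatocytes and not at the neutrophils that these genes mark.

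Neutrophils are made in the bone marrow and leave it as mature cells. Primary granule proteins such as myeloperoxidase and neutrophil elastase are transcribed in early precursors, secondary granule proteins such as lactoferrin in later precursors, and both sets of transcripts are largely shut off before the cell enters the blood. Mature cells keep transcripts of the calcium-binding pair S100a8 and S100a9, the G-CSF receptor Csf3r and the chemokine receptor Cxcr2, and in injured liver they are drawn in by CXC chemokines and adhesion molecules of the vessel wall. In bulk tissue, fewer neutrophils and less RNA per neutrophil cannot be told apart.

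The libraries held 33047900 to 52199900 estimated counts each, and values are given as CPM, counts relative to the library total, scaled by TMM factors, which ran from 0.786 to 0.851 in Veh and from 1.08 to 1.24 in CCl4 livers. At this depth 3 counts corresponded to 0.0511 to 0.112 CPM, depending on the liver. The 4 hepatocyte markers Alb, Apoa1, Ttr and Cps1 summed to 63443 to 143354 CPM, against 6.37 to 39.7 CPM for the 10 neutrophil genes together. Bap1, the targeted gene, was at 34.8 ± 0.027 CPM (SD, n = 2) with Veh and 30.4 ± 1.00 (n = 3) with CCl4 under the NTC guide, and at 18.5 ± 1.35 (n = 2) and 19.3 ± 2.43 (n = 3) under sgBap1. The decrease was past the threshold in Veh (log2 fold change -0.91, adjusted p = 0.0208) and in CCl4 livers (-0.65, adjusted p = 0.0295). A pair of livers stood apart from the rest of their groups. NTC-CCl4 liver 2 had the highest summed hemoglobin level, 2437 CPM against 566 to 1631 in the other livers. In sgBap1-CCl4 liver 2 the adipocyte genes Adipoq and Plin1 were at 36.4 and 34.5 CPM, whereas each was at or below 0.0425 CPM in every other liver. The number of the 10 neutrophil genes past the threshold in each comparison was therefore also obtained without these 2 livers. Counts of separated groups and of other gene lists used all 10 livers. The number past the threshold stayed at 5 in the sgBap1 CCl4 comparison and at 0 in the comparisons between guides. It went from 6 to 5 in the NTC CCl4 comparison.

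All 5 genes of mature neutrophils rose with CCl4 in NTC and in sgBap1 livers, with fold changes from 3.57 to 5.49 in NTC and from 3.05 to 5.74 in sgBap1. Of the 10 genes, 8 passed the filter on low counts and were tested with edgeR across 17015 genes. In NTC livers 6 of the 8 rose and none fell, where 53.9% of all tested genes changed, 27.4% upward and 26.6% downward. In sgBap1 livers 5 of the 8 rose and none fell, where 57.0% of all tested genes changed, 29.0% upward and 28.0% downward. The median log2 fold change of the 8 genes was 2.06 in NTC and 1.65 in sgBap1, against 0.03 and 0.04 over all tested genes. Levels in the NTC-CCl4 livers lay entirely above NTC-Veh for 6 of the 8, a separation found for 36.7% of tested genes. Ltf, which is among these 6 and among the 6 that rose, passed the filter through CCl4 livers only, which favored a rise. In sgBap1 livers 5 of the 8 lay entirely above Veh (37.3% of tested genes did), and Ngp lay entirely below it (34.9% did). S100a8, S100a9, Csf3r and Cxcr2 exceeded the filter's minimum of 0.228 CPM in all 10 livers, and Retnlg did in 8. Both CCl4 comparisons were set against 2 Veh livers, and the labels do not say whether same-group livers came from separate litters or days.

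**Figure D1:**
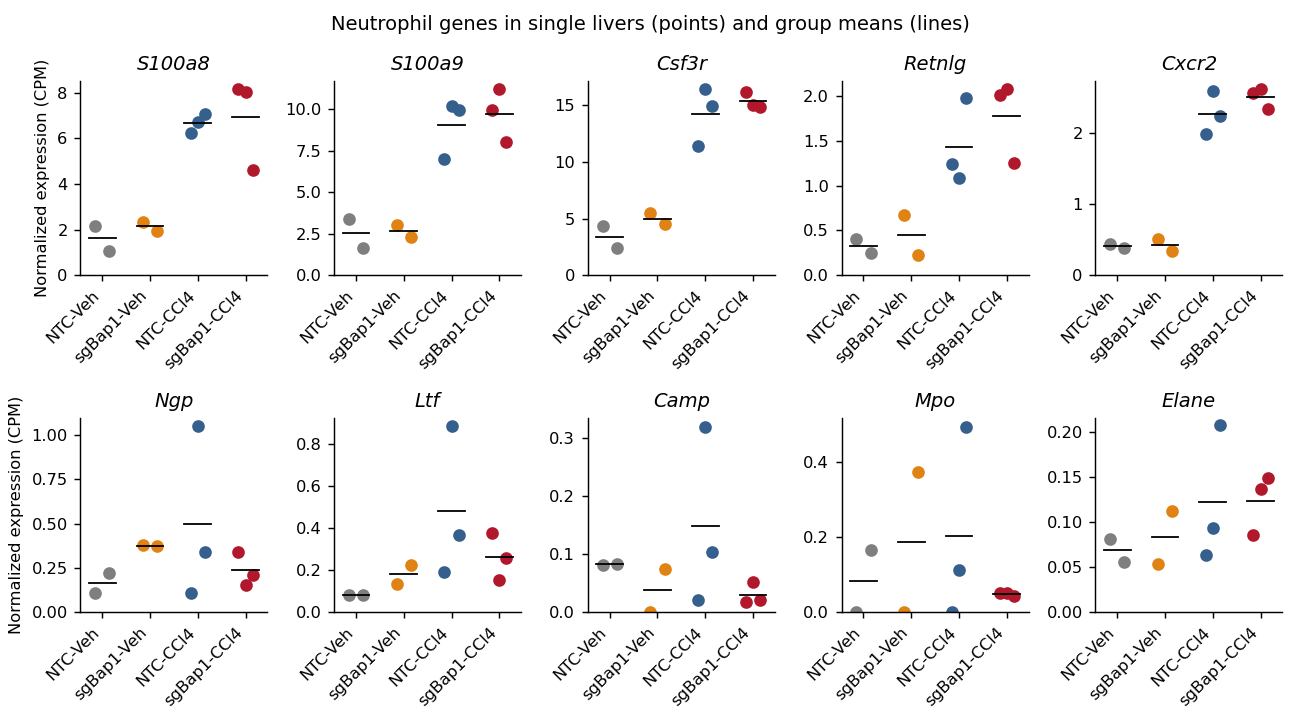
Each panel plots the TMM-scaled level of a neutrophil gene in CPM (vertical axis, starting at 0, its range set per gene) in the 4 groups (horizontal axis), with a point per liver and a line at the group mean. For S100a8, S100a9, Csf3r, Retnlg and Cxcr2 all 6 CCl4 livers sit above all 4 Veh livers, whereas the 5 granule genes stay at or below 1.05 CPM and NTC-CCl4 liver 2 or 3 is the highest point.

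S100a8 and S100a9 encode the subunits of calprotectin, the most abundant protein pair of the neutrophil cytosol, which monocytes also make. S100a8 was at 2.15 and 1.08 CPM with Veh and 6.25, 6.71 and 7.08 with CCl4 in NTC livers, and 2.34 and 1.95 with Veh and 8.16, 8.05 and 4.61 with CCl4 in sgBap1 livers. It rose 4.12-fold in NTC (log2 fold change 2.04, SE 0.32, adjusted p = 0.000408) and 3.22-fold in sgBap1 livers (1.69, SE 0.31, adjusted p = 0.00107). The lowest CCl4 liver, sgBap1-CCl4 liver 3, was still above the highest Veh liver. S100a9 was at 3.38 and 1.66 CPM with Veh and 6.97, 10.2 and 9.92 with CCl4 in NTC livers, and 3.04 and 2.32 with Veh and 9.94, 11.2 and 8.01 with CCl4 in sgBap1 livers. It rose 3.57-fold in NTC (log2 fold change 1.84, SE 0.30, adjusted p = 0.000551) and 3.60-fold in sgBap1 (1.85, SE 0.30, adjusted p = 0.000511). Here too the CCl4 and Veh livers did not overlap. Both genes of the pair rose with CCl4, but the lowest treated liver differed, sgBap1-CCl4 liver 3 for S100a8 and NTC-CCl4 liver 1 for S100a9. The ratio of S100a9 to S100a8 counts ran from 1.19 to 1.57 in the 4 Veh livers and from 1.12 to 1.74 in the 6 CCl4 livers, ranges that overlap.

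Csf3r, the receptor for the cytokine that drives neutrophil production and survival, had the most counts of the 10 genes over all livers. Its level was 4.36 and 2.38 CPM with Veh and 11.4, 16.4 and 14.9 with CCl4 in NTC livers, and 5.46 and 4.56 with Veh and 16.2, 15.0 and 14.8 with CCl4 in sgBap1 livers. It rose 4.23-fold in NTC (log2 fold change 2.08, SE 0.24, adjusted p = 5.88e-05) and 3.05-fold in sgBap1 (1.61, SE 0.23, adjusted p = 0.000238). The 3 sgBap1-CCl4 livers were close to each other, and NTC-CCl4 liver 1 was the lowest treated liver for this gene. Cxcr2, the receptor through which neutrophils follow Cxcl1 and Cxcl2, was at 0.436 and 0.388 CPM with Veh and 1.98, 2.59 and 2.24 with CCl4 in NTC livers, and 0.511 and 0.337 with Veh and 2.57, 2.62 and 2.34 with CCl4 in sgBap1 livers. These were 9 to 19 counts per Veh liver and 86 to 153 counts per CCl4 liver. Its fold changes were the largest of the 5 genes, 5.49 in NTC (log2 fold change 2.46, SE 0.26, adjusted p = 3.18e-05) and 5.74 in sgBap1 livers (2.52, SE 0.26, adjusted p = 2.68e-05). The intervals of the 5 fold changes overlapped in NTC, where that of Cxcr2 ran from 3.67 to 8.23 and that of S100a9 from 2.25 to 5.68 (95% intervals).

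Retnlg, a secreted resistin-like protein found mainly in mature neutrophils, was the weakest of the 5. It was at 0.408 and 0.249 CPM with Veh and 1.24, 1.09 and 1.98 with CCl4 in NTC livers, and 0.673 and 0.225 with Veh and 2.01, 2.07 and 1.25 with CCl4 in sgBap1 livers, or 6 to 25 counts per Veh and 58 to 121 counts per CCl4 liver. It rose 4.26-fold in NTC (log2 fold change 2.09, SE 0.49, adjusted p = 0.00487) and 3.74-fold in sgBap1 (1.90, SE 0.46, adjusted p = 0.00504). The NTC call depended on a single control, since without NTC-Veh liver 2 the log2 fold change was 1.78 with an adjusted p of 0.0519.

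The scaling of the libraries bears on the size of every CCl4 change. With library size alone in place of TMM, the median log2 fold change of all tested genes moved from 0.03 to 0.50 in NTC and from 0.04 to 0.52 in sgBap1. The share of called genes that were higher then went from 50.8% to 80.5% in NTC and from 50.9% to 78.3% in sgBap1. The 5 genes of mature neutrophils stayed above those medians, at log2 fold changes of 2.32 to 2.93 in NTC and 2.09 to 3.00 in sgBap1.

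**Figure D2:**
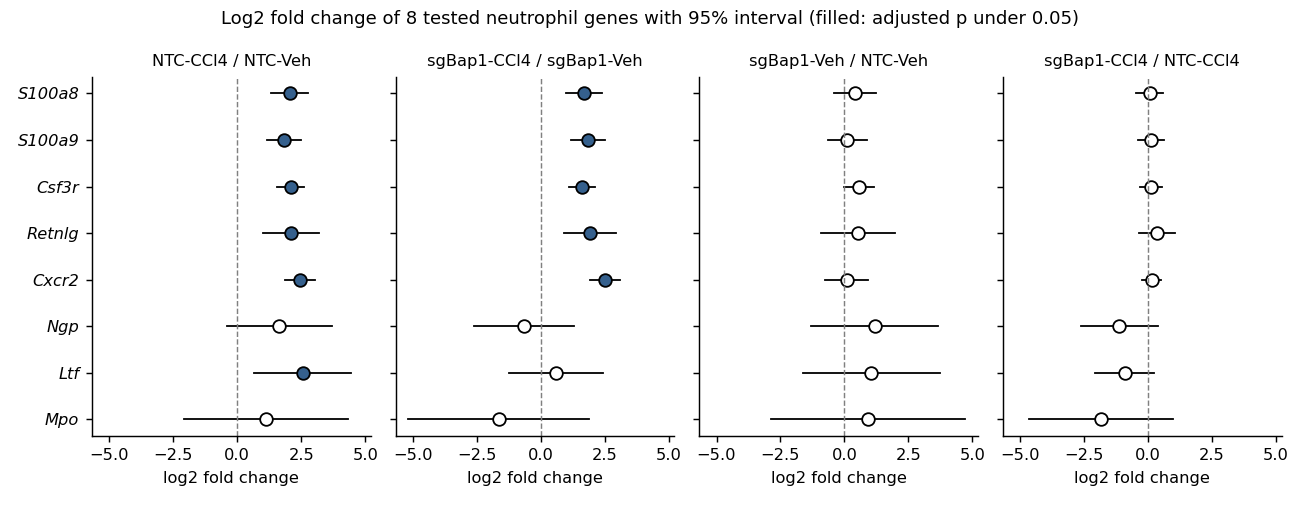
Log2 fold change (horizontal axis, same range in each panel) of the 8 tested neutrophil genes (vertical axis) in 4 comparisons from the edgeR fit of all 10 livers, with bars for the 95% interval and filled points where the adjusted p is under 0.05. The 5 genes of mature neutrophils lie between 1.61 and 2.52 in both CCl4 panels, and no point is filled in the panels that compare guides.

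Granule genes were close to the detection limit, and their counts are given per liver. Ngp, which encodes neutrophilic granule protein of the secondary granules, had 4 and 8 counts with Veh and 5, 56 and 13 with CCl4 in NTC livers, and 14 and 10 with Veh and 20, 9 and 10 with CCl4 in sgBap1 livers. Ltf, the iron-binding lactoferrin, had 3 and 3 counts with Veh and 9, 47 and 14 with CCl4 in NTC livers, and 5 and 6 with Veh and 22, 9 and 12 with CCl4 in sgBap1 livers. Camp, the precursor of the antimicrobial peptide cathelicidin, had 3 and 3 counts with Veh and 1, 17 and 4 with CCl4 in NTC livers, and 0 and 2 with Veh and 1, 3 and 1 with CCl4 in sgBap1 livers. For all 3 genes NTC-CCl4 liver 2 held the highest count of the 10 livers, which was also the liver with the highest hemoglobin level. Its summed level of Ngp, Ltf and Camp was 2.25 CPM, against 0.272 to 0.807 CPM in the other 9 livers, while its sum over the 5 genes of mature neutrophils, 37.0 CPM, lay within the 27.9 to 39.0 CPM of the CCl4 livers. Of the 8 genes on the blood list, 6 were tested, and 5 of them rose with CCl4 in NTC livers (27.4% of all tested genes did) and 1 in sgBap1 livers (29.0% did). The part of blood in the granule genes was not tested.

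Ltf was the single granule gene of the 10 past the threshold, in NTC livers only (log2 fold change 2.55, SE 0.86, adjusted p = 0.0281). It passed the filter through 4 CCl4 livers and no Veh liver, so a difference was favored by the filter itself. Without NTC-CCl4 liver 2 its log2 fold change was 1.68 (adjusted p = 0.0834), and without NTC-Veh liver 1 or 2, which leaves a single control, the value stayed at 2.54 or 2.57 with an adjusted p of 0.130 or 0.128. In sgBap1 livers the Ltf value was 0.59 (SE 0.83, adjusted p = 0.565), and the difference between the 2 responses was not past the threshold either (-1.96, SE 1.32, adjusted p = 0.674). Ngp had log2 fold changes of 1.65 in NTC (SE 0.92, adjusted p = 0.156) and -0.66 in sgBap1 (SE 0.88, adjusted p = 0.545). Leaving out NTC-CCl4 liver 2 brought the NTC value down to 0.36 (adjusted p = 0.704), whereas leaving out NTC-CCl4 liver 1 took it to 2.13 (adjusted p = 0.0272). The Ngp response in NTC livers thus rested on which treated livers were included.

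**Figure D3:**
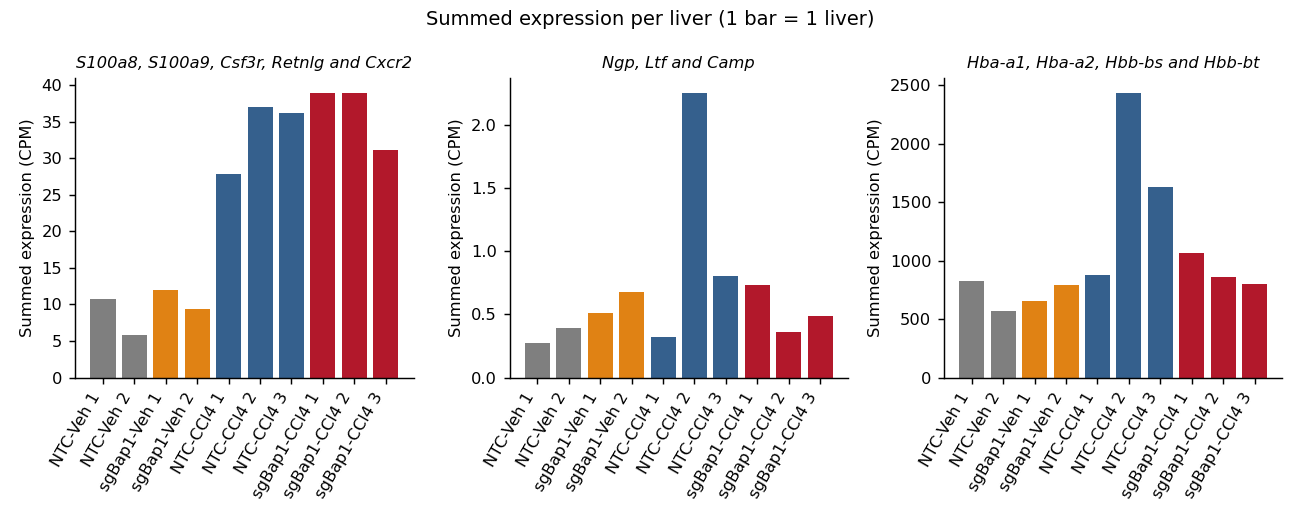
Summed TMM-scaled level in CPM (vertical axes, starting at 0) in each of the 10 livers (1 bar per liver, colored by group) for the 5 genes of mature neutrophils, for the 3 secondary granule genes and for 4 hemoglobin genes. The first panel separates Veh livers at 5.76 to 12.0 CPM from CCl4 livers at 27.9 to 39.0 CPM, whereas in the other panels NTC-CCl4 liver 2 stands highest, at 2.25 and 2437 CPM.

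The primary granule genes were not detectably changed at this depth. Mpo, myeloperoxidase, had 0 and 6 counts with Veh and 0, 6 and 19 with CCl4 in NTC livers, and 0 and 10 with Veh and 3, 3 and 2 with CCl4 in sgBap1 livers. Its log2 fold change with CCl4 was 1.13 in NTC (SE 1.44, adjusted p = 0.538) and -1.65 in sgBap1 (SE 1.59, adjusted p = 0.398), with a NTC interval from -2.08 to 4.33. A count of 0 in a liver allows up to 0.0511 to 0.112 CPM, counting error only. Elane, neutrophil elastase, had 3 and 2 counts with Veh and 3, 5 and 8 with CCl4 in NTC livers, and 2 and 3 with Veh and 5, 8 and 7 with CCl4 in sgBap1 livers. Camp and Elane did not pass the filter and were compared by an exact permutation test of log2(CPM + 0.1) within guides (two-sided, 100 arrangements, smallest possible p 0.01). CCl4 and Veh livers differed by 0.11 for Camp (exact permutation p = 0.79) and by 0.32 for Elane (exact permutation p = 0.16) on that scale, which understates the change of genes this low. For Elane the difference was 0.54 (exact permutation p = 0.03) with library size alone, so its reading depended on the scaling. All 5 granule genes together made up 1.36% to 11.0% of the counts of the 10 genes in a liver.

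Between guides, none of the 8 tested genes changed in either treatment. In Veh livers 0 of 8 passed the threshold, where 0.406% of all tested genes did (0.276% higher and 0.129% lower in sgBap1), and 0 of 8 had an unadjusted p under 0.05. DESeq2 and limma-voom also called 0 of them, but DESeq2 gave no adjusted p for at least Ngp. All 8 values were positive, with a median log2 fold change of 0.55 against 0.02 over all tested genes. Of the 8, 3 (Csf3r, Ngp and Ltf) lay entirely above NTC-Veh, as did 21.7% of tested genes. The genes were read in the same livers, so their shared sign is not 8 separate results. With a single Veh liver left out, S100a9 (-0.32), Retnlg (-0.55), Cxcr2 (-0.29) and Mpo (-4.97) turned negative. Ngp and Mpo exceeded the filter's minimum in sgBap1-Veh but in no NTC-Veh liver, which favored a positive value. Csf3r came nearest to the threshold, at 3.37 ± 1.39 CPM under the NTC guide and 5.01 ± 0.63 under sgBap1 (SD, n = 2 each), a 1.49-fold difference with an interval from 0.994 to 2.24 (adjusted p = 0.413). Its log2 value of 0.58 went to 0.21 without NTC-Veh liver 2 and to 1.08 without NTC-Veh liver 1. For S100a8 the log2 fold change was 0.41, for Retnlg 0.53, for S100a9 0.10 and for Cxcr2 0.08, with adjusted p from 0.744 to 0.970. The 95% interval for S100a9 ran from 0.631- to 1.82-fold and that for Cxcr2 from 0.598- to 1.87-fold, so changes within these bounds could not be seen with 2 livers a group. Ngp (1.17, SE 1.11), Ltf (1.04, SE 1.20) and Mpo (0.93, SE 1.71) rested on 14 counts or fewer per liver.

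In CCl4 livers 0 of the 8 tested genes passed the threshold, where 0.329% of all tested genes did (0.200% higher and 0.129% lower in sgBap1). None had an unadjusted p under 0.05, and DESeq2 and limma-voom called 0 as well, but DESeq2 gave no adjusted p for at least Ngp. The levels of all 8 overlapped between sgBap1-CCl4 and NTC-CCl4, while 20.2% of tested genes did not overlap. The 5 genes of mature neutrophils had log2 fold changes from 0.06 to 0.34. S100a8 averaged 6.68 ± 0.42 CPM in NTC-CCl4 and 6.94 ± 2.01 in sgBap1-CCl4 (SD, n = 3 each), a 1.04-fold difference with an interval from 0.720 to 1.51. Csf3r averaged 14.3 ± 2.56 and 15.4 ± 0.73 CPM (1.08-fold, interval 0.803 to 1.44), and Cxcr2 averaged 2.27 ± 0.31 and 2.51 ± 0.15 CPM (1.10-fold, interval 0.851 to 1.43). The interval for S100a9 ran from 0.752- to 1.55-fold and that for Retnlg, the widest of the 5, from 0.783- to 2.06-fold, so differences within these bounds could not be seen. The granule genes had negative values, -1.13 for Ngp (adjusted p = 0.484), -0.92 for Ltf (adjusted p = 0.464) and -1.85 for Mpo (adjusted p = 0.546). Without NTC-CCl4 liver 2 the Ngp value was 0.16 and the Ltf value -0.05, so the size of both values rested on that liver. Camp differed between guides by -0.61 on the log2(CPM + 0.1) scale over both treatments (exact permutation p = 0.0667, smallest possible 0.0167), and Elane by 0.08 (exact permutation p = 0.733).

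The difference between the CCl4 responses of sgBap1 and NTC livers was tested as an interaction. None of the 8 genes passed, and 0.00% of all tested genes did, although 1764 of them had an unadjusted p under 0.05 in edgeR and DESeq2 called 424. None of the 8 had an unadjusted p under 0.05 in edgeR. DESeq2 and limma-voom called 0 of them, but DESeq2 gave no adjusted p for at least Ngp. Among the genes of mature neutrophils the interaction ran from -0.47 for Csf3r (SE 0.32, adjusted p = 0.684) to 0.06 for Cxcr2 (SE 0.41, adjusted p = 0.981). S100a9, with 1.84 in NTC and 1.85 in sgBap1, had an interaction of 0.01 with an interval from -0.92 to 0.94. The median over the 8 was -0.41 against -0.02 over all tested genes, with the lowest values in Ngp (-2.31), Ltf (-1.96) and Mpo (-2.78).

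Expressed per kilobase of exon, which allows levels of different genes to be ranked, S100a9 was the highest neutrophil gene in each group. In NTC-CCl4 livers it was at 17.3 ± 3.40 CPM per kb (SD, n = 3), followed by S100a8 at 9.62 ± 0.60, Csf3r at 3.95 ± 0.71, Retnlg at 2.42 ± 0.80 and Cxcr2 at 0.745 ± 0.10. The livers' ranges of neighbors in this order did not overlap, except those of Csf3r (3.17 to 4.55) and Retnlg (1.84 to 3.34) and those of Cxcr2 (0.650 to 0.851) and Ngp (0.0872 to 0.861). The 5 granule genes followed with group means from 0.0591 (Mpo) to 0.408 CPM per kb (Ngp), and their ranges overlapped each other. In sgBap1-CCl4 livers the order of the first 5 was the same, from 18.6 ± 3.07 for S100a9 to 0.823 ± 0.05 for Cxcr2.

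Some of these genes lie close to each other in the genome (GRCm38, GENCODE vM21). S100a8 (ENSMUSG00000056054.9, chr3:90668978-90670035, plus strand) and S100a9 (ENSMUSG00000056071.12, chr3:90692632-90695721, minus strand) are 22.6 kb apart. Ngp (ENSMUSG00000032484.8, chr9:110419747-110423012), Ltf (ENSMUSG00000032496.7, chr9:111019271-111042767) and Camp (ENSMUSG00000038357.10, chr9:109847379-109849617) all lie on chromosome 9, with Ngp 570 kb from Camp and 596 kb from Ltf. Elane (ENSMUSG00000020125.7, chr10:79886247-79888215) starts 3072 bases after the end of Prtn3, the gene of the primary granule protease proteinase 3. Csf3r (ENSMUSG00000028859.14, chr4:126024550-126044440), Cxcr2 (ENSMUSG00000026180.8, chr1:74153989-74161246), Retnlg (ENSMUSG00000022651.6, chr16:48872621-48874496) and Mpo (ENSMUSG00000009350.13, chr11:87793581-87804413) have no other of the 10 genes beside them. Of the 50-base stretches of its transcripts, Csf3r shared 10.5% with other genes, Cxcr2 4.01% and Mpo 0.228%, and the other 7 genes shared none. Mpo overlaps Gm11505 on the opposite strand, and whether strand was used in counting is not given in the sources used here, so its counts could include reads of that gene.

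The 250 bases before each start in RefSeq (GRCm38.p6) were searched on both strands for 3 motifs: TATAAA of the TATA box, TTGCNNAA as bound by C/EBP factors and GAGGAAGT as bound by PU.1, the last 2 being transcription factors of granulocyte genes. TTGCNNAA was found before 4 of the 10 genes and before 9.56% of all 32851 promoters, GAGGAAGT before 3 and 2.44%, and TATAAA before 1 and 12.4%. The stretches below show the matches of the calprotectin pair, which rose together, and of 4 granule genes, of which only Ltf passed the threshold with CCl4 and only in NTC livers, each as 30 bases on the gene's strand with the match in capitals.
S100a8 (TATA box, chr3:90669029-90669058, plus strand): caagctttcctcTATAAAagcagctgacac
S100a8 (PU.1 motif, chr3:90668888-90668917, plus strand): ccaacactcccACTTCCTCagactcagaaa
S100a9 (C/EBP motif, chr3:90695939-90695968, minus strand): ggtaggctgtcTTGCTTAAgatttgggcgg
Ngp (C/EBP motif, chr9:110419659-110419688, plus strand): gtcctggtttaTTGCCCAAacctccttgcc
Ltf (C/EBP motif, chr9:111019206-111019235, plus strand): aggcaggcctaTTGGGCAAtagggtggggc
Mpo (PU.1 motif, chr11:87793549-87793578, plus strand): gtggagagagaGAGGAAGTtgcctttgtcc
Elane (PU.1 motif, chr10:79886216-79886245, plus strand): cgtgtcccaggGAGGAAGTagggctgtggc

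The matches lay at 30 and 172 bases before the start of S100a8, 236 before S100a9, 138 before Ngp, 75 before Ltf, 224 before Mpo and 85 before Elane, counted from the first base of the match. Ngp had a further TTGCNNAA match 11 bases before its start and Retnlg 1 at 246 bases, while none of the 3 motifs was found before Csf3r, Cxcr2 or Camp. The RefSeq starts used here differ from the GENCODE positions above for some genes. By GENCODE, the TATA stretch of S100a8, the Ngp match at 11 bases and much of the Camp and Mpo windows lie inside the genes. The Mpo and Elane matches lie before the GENCODE starts, but nearer to them than the distances above. Matches occurred in genes that rose and in genes that did not, and a match describes letters in the window only.

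Other genes of neutrophils and of their recruitment, 42 in 5 lists, gave a wider view of the CCl4 response. Of these, 34 were tested, and 26 rose and 1 fell in NTC livers (27.4% and 26.6% of all tested genes did), while 26 rose and 2 fell in sgBap1 livers (29.0% and 28.0%). Some of the genes that rose, among them Il1r2, Padi4, Mmp8, Cd177, Cxcl2 and Sele, had at most 10 counts in any Veh liver. These passed the filter through CCl4 livers only, so a rise was favored by the filter itself. The list of other granule genes had 7 of 10 tested, and all 7 rose in both guides (Prtn3, Lcn2, Chil3, Mmp8, Mmp9, Cd177 and Pglyrp1). Chil3, a chitinase-like protein of neutrophils and macrophages, went from 0.548 ± 0.15 to 27.3 ± 4.2 CPM in NTC and from 0.786 ± 0.16 to 28.3 ± 6.2 in sgBap1 livers. Lcn2, a siderophore-binding secondary granule protein that hepatocytes also make, went from 41.6 ± 7.9 to 432 ± 50 CPM in NTC and from 38.9 ± 11 to 309 ± 38 in sgBap1. In the same livers Ngp, Ltf and Camp had 56 counts or fewer. Prtn3 rose from 0.752 ± 0.59 to 14.1 ± 4.9 CPM in NTC (log2 fold change 4.22, SE 0.51, adjusted p = 0.000127) and from 0.411 ± 0.10 to 9.64 ± 2.3 in sgBap1 (4.51, SE 0.57, adjusted p = 0.000154), while its neighbor Elane stayed at 8 counts or fewer in each liver. The primary granule protease Ctsg had at most 3 counts in any liver.

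Of 15 other genes of mature neutrophils 12 were tested, and 7 rose and 1 fell in each guide. Fpr1 was not among them in edgeR, but DESeq2 and limma-voom both called it lower in sgBap1 livers (4.54 ± 0.39 to 2.50 ± 0.69 CPM). In NTC livers it went from 1.82 ± 0.70 to 3.21 ± 1.3 CPM and was not called. Itgam, an integrin subunit of neutrophils and monocytes, rose 23.4-fold in NTC and 19.5-fold in sgBap1 livers. Il1r2, Trem1, Padi4 and Hdc also rose in both, Fpr2 was past the threshold in NTC and Stfa2l1 in sgBap1, and the protease inhibitor gene Wfdc21 fell by 1.07 and 1.34 on the log2 scale. Wfdc21 was at 314 to 396 CPM in the Veh and 133 to 190 CPM in the CCl4 livers. In the same livers the 5 genes of mature neutrophils together summed to 5.76 to 12.0 and 27.9 to 39.0 CPM. The part of other cells in the Wfdc21 level was not tested. Ly6g, the surface marker by which mouse neutrophils are commonly sorted, had 0 to 2 counts per Veh liver and 1 to 9 per CCl4 liver and was not tested. Of the recruitment signals 6 of 8 were tested, and the chemokines Cxcl1 and Cxcl2, ligands of Cxcr2, and the adhesion molecules Icam1, Sele and Selp rose in both guides. Cxcl1 went from 5.34 ± 1.8 to 29.6 ± 17 CPM in NTC and from 8.07 ± 1.7 to 38.0 ± 4.1 in sgBap1 livers. All 6 subunit genes of the NADPH oxidase rose in both guides, as did Spi1, which encodes PU.1, whereas Cebpe, a factor of granule gene transcription, fell in sgBap1 by 1.75 on the log2 scale (adjusted p = 0.00296). Its value in NTC livers was -0.97 (adjusted p = 0.0544 in edgeR), where DESeq2 and limma-voom both called it lower, and the difference between the guides was not past the threshold (-0.78, adjusted p = 0.685). Gfi1 did not change detectably.

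**Figure D4:**
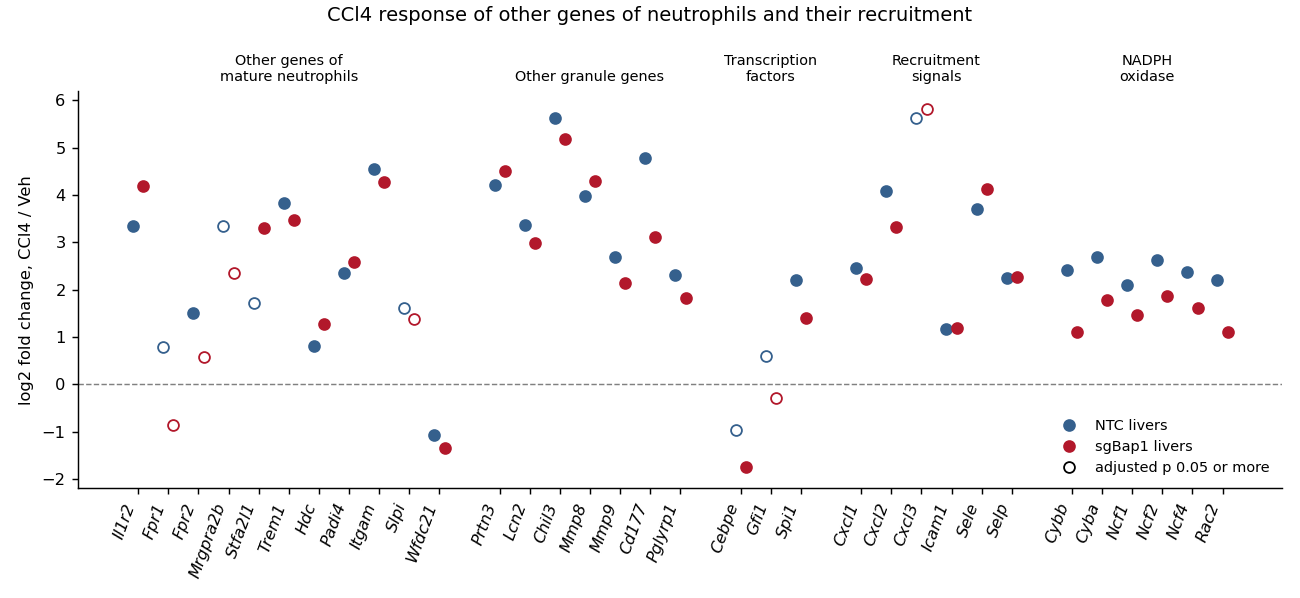
Log2 fold change of CCl4 over Veh livers (vertical axis) for 33 of the tested genes of 5 lists (horizontal axis), with a blue point for NTC and a red point for sgBap1 livers, open where the adjusted p is 0.05 or more. Nearly all points lie above 0, with Wfdc21 and Cebpe the lowest, and Cxcl3, listed at 0 counts in all 4 Veh livers, has a plotted value that depends on the prior count.

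Between guides, edgeR called 0 of these 34 genes in Veh livers (9 with an unadjusted p under 0.05), 0 in CCl4 livers (3) and 0 in the interaction (8). Of all 17015 tested genes it called 0.406%, 0.329% and 0.00%, and 2100, 2376 and 1764 had an unadjusted p under 0.05. limma-voom also called 0 of the 34 in each comparison. DESeq2 called 8 as higher in sgBap1-Veh livers, namely the 6 NADPH oxidase genes, Spi1 and Fpr1, none in CCl4 livers, and 3 in the interaction. Of all tested genes it called 562, 509 and 424, higher or lower. It gave no adjusted p for 4 of the 34 genes in each of these comparisons. The NADPH oxidase genes, which macrophages share, had log2 fold changes from 0.75 to 1.14 in sgBap1-Veh, against 0.08 to 0.58 for the 5 genes of mature neutrophils.

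Genes of other leukocytes were measured in the same livers. The 9 monocyte and macrophage genes summed to 138 to 207 CPM with Veh and 490 to 804 with CCl4 in NTC livers, and to 277 to 401 with Veh and 472 to 645 with CCl4 in sgBap1 livers, and all 9 were measured above 0 in every liver. With CCl4, 6 of the 9 rose in NTC (27.4% of all tested genes did). In sgBap1, 5 rose (29.0% did) and 2 (Clec4f and Timd4 of resident macrophages) fell (28.0% did). The part of monocytes in the levels of S100a8, S100a9 and Itgam was not tested. Of the 8 eosinophil, basophil and mast cell genes, Epx and Ear6 were at 0 in all 10 livers and Siglecf alone was tested, at 0 to 0.0277 CPM in NTC-Veh and 0.599 to 0.768 in NTC-CCl4. Siglecf passed the filter through CCl4 livers only, which favored a rise. The 4 lymphocyte genes summed to 2.60 to 5.28 CPM with Veh and 5.48 to 7.96 with CCl4 in NTC livers, and to 6.47 to 7.43 with Veh and 4.99 to 5.91 with CCl4 in sgBap1 livers, so the CCl4 range lay above the Veh range in NTC and below it in sgBap1. With CCl4, 1 of the 4 rose in NTC (27.4% of all tested genes did), with a median log2 fold change of 0.67. In sgBap1 0 of the 4 passed the threshold (57.0% of all tested genes did), with a median of -0.37 and 0 of 4 with an unadjusted p under 0.05 in edgeR. The 4 hepatocyte markers were lower with CCl4 in both guides, at log2 fold changes from -1.76 to -0.67 in NTC and from -1.41 to -0.42 in sgBap1. In NTC 4 of 4 passed the threshold (26.6% of all tested genes fell). In sgBap1 1 of 4 did (28.0% fell), with 3 of 4 at an unadjusted p under 0.05 in edgeR. In the interaction 0 of the monocyte and macrophage, lymphocyte and hepatocyte genes passed the threshold, where 0.00% of all tested genes did. An unadjusted p under 0.05 in edgeR was found for 8 of 9 monocyte and macrophage, 2 of 4 lymphocyte and 0 of 4 hepatocyte genes. Over all 17015 tested genes it was found for 1764. All 9 monocyte and macrophage values were negative (median -1.22), read in the same livers.

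The genes with the pattern most like a neutrophil gene were sought among the 14701 tested genes outside the 10 that averaged 20 counts or more, by the root mean square difference of centered log2 CPM over the 10 livers. Those nearest to S100a8 were Ctbp2 (0.169), Rap1gap2 (0.180) and Selplg (0.191). S100a8 itself differed from S100a9 by 0.189, from Csf3r by 0.223 and from Cxcr2 by 0.405 on this measure. Nearest to Csf3r were Trpv2 (0.136), Ncf4 (0.146), a subunit of the NADPH oxidase, and Zeb2os (0.153). Ngp had no near neighbor, with Ighg2b (0.569), an immunoglobulin heavy chain gene, Alas2 (0.580), the heme synthesis enzyme of red cell precursors, and Ugdh (0.586) the closest, and differed from Ltf by 0.556.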

How the data were processed

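Livers of 10 mice were sequenced as poly(A) RNA (stranded TruSeq libraries). The authors aligned reads to GRCm38 with STAR 2.7.6a and quantified genes with Salmon 1.4.0 on GENCODE vM25, and they deposited estimated counts per gene symbol, of which 8.65% to 9.67% per liver were not whole. The column names were matched to the library names in the labels, and groups were taken from the labels. All members of the set and the other gene lists were chosen with earlier results of these data known.

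Counts were rounded and filtered with filterByExpr of edgeR 4.0.16 (R 4.3.3), which left 17015 genes, and were scaled by TMM. A quasi-likelihood fit of the 4 groups gave 5 contrasts, each two-sided, with Benjamini-Hochberg adjustment over all tested genes and a threshold of 0.05. DESeq2 1.42.0, the tool of the study, and limma 3.58.1 (voom) served as alternatives. Standard errors came from the F statistic. Promoter sequences came from RefSeq and gene positions from GENCODE vM21, an earlier release than the one used for counting. Genes were named by fixed rules: all 10 members, list genes past the threshold or near 0, and the 3 genes most like S100a8, Csf3r and Ngp. A gene of the other mature neutrophil list is counted but not reported here. Livers were not treated as paired by replicate number in the main fit. Livers of a group differed by more than counting noise, with a mean chi-square per gene of 15.5 or more, so no pair looked like a repeat of the same library.

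The fit was tested on simulated counts with known changes placed in NTC-CCl4 livers. For genes under 50 mean counts, as Ngp, Ltf and Mpo are, 0 of 50 2-fold changes were found in the NTC CCl4 comparison. Between guides in CCl4 livers 3 of 50 were found. For 4-fold changes these were 24 and 34 of 50. At 50 or more mean counts, 35 and 40 of 50 2-fold and 48 and 49 of 50 4-fold changes were found. Of all genes called, 7.76% and 6.67% had not been changed. The simulation had 116 and 135 genes called in these 2 comparisons, against 9178 and 56 in the real counts. The adjustment is stricter with fewer genes called. Shares found in the NTC CCl4 comparison can thus lie below those of the real fit, and shares between guides above them. The other comparisons were not assessed. Intervals and floors cover counting error or the spread between these livers only.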

Additional observations from a re-analysis of the deposited data

How the results depend on the processing

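The number of neutrophil genes called was 5 or 6 in NTC-CCl4 against NTC-Veh, 5 in sgBap1-CCl4 against sgBap1-Veh and 0 between guides and in the interaction under every alternative scaling, filter, tool and sample choice with all livers kept. With 1 liver left out it was 4 to 7, 5, 0, 0 and 0. limma-voom ended the Ltf call in NTC livers (2.13, adjusted p = 0.0567). Between guides and in the interaction, DESeq2 gave no adjusted p for at least Ngp, which was counted as not called. Deviations from the group means were correlated between livers with the same replicate number (-0.149 to 0.102, median 0.021, over 13 pairs). In groups of 2 livers these deviations mirror each other, so the 13 values are not separate and do not settle whether the numbers pair the livers. With the replicate block the genes called in all went from 69 to 1 in sgBap1-Veh against NTC-Veh and from 56 to 24 in CCl4 livers, and S100a9 in the interaction was at -0.00390.

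Counts of all genes called between guides depended on the tool. In Veh livers, against 69, library size alone gave 32, DESeq2 562, limma-voom 26 and only the groups compared 27. In CCl4 livers, against 56, no filter gave 94, DESeq2 509 and only the groups compared 28. The interaction, against 0, had 2 with library size alone, 34 with no filter and 424 with DESeq2. Leaving out single livers gave 7212 to 9374 and 7729 to 9599 genes in the CCl4 comparisons, 0 to 150 between guides in Veh, 1 to 71 in CCl4 and 0 to 7 in the interaction. Without both livers that stood apart, a choice made after seeing the data, these last were 120, 3 and 1. The causes were not tested.

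Directions that turned belonged to values short of the threshold. limma-voom gave the interaction as -0.0559 for S100a9 and 0.0053 for Retnlg. With single livers left out, sgBap1 against NTC in Veh ran from -0.32 to 0.70 for S100a9, -0.55 to 1.02 for Retnlg, -0.29 to 0.31 for Cxcr2 and -4.97 to 5.86 for Mpo. In CCl4 livers it ran from -0.0707 to 0.27 for S100a8, -0.0462 to 0.22 for S100a9, -0.0321 to 0.22 for Csf3r, -1.61 to 0.16 for Ngp and -1.30 to -0.05 for Ltf, and without both livers S100a8 was at -0.05, Ngp at 0.40 and Ltf at 0.24. The interaction ran from -0.93 to 0.0552 for S100a8, -0.59 to 0.43 for S100a9 (-0.00873 without both livers), -0.68 to 0.89 for Retnlg, -0.17 to 0.43 for Cxcr2 and -7.71 to 3.11 for Mpo. The Mpo response in sgBap1 ran from -2.87 to 4.24. Camp with CCl4 ran from -0.12 to 0.32 and Elane from 0.19 to 0.44, with 0.54 (exact permutation p = 0.03) for Elane with library size alone. Between guides Camp ran from -0.82 to -0.38 and Elane from -0.0379 to 0.21, and Camp passed 0.05 without sgBap1-Veh liver 2 (exact permutation p = 0.0333) and without NTC-CCl4 liver 1 (exact permutation p = 0.0167). Depth limits what Camp, Mpo and Elane can show, with 0 to 19 counts a liver.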

Other observations

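In sgBap1-CCl4 liver 2, the liver with adipocyte transcripts, the mast cell genes Cpa3 and Tpsb2 were at 0.342 and 0.188 CPM, against at most 0.0564 and 0.0374 CPM in the other 9 livers. The levels of S100a8, S100a9, Csf3r, Retnlg and Cxcr2 in that liver summed to 39.0 CPM, against 38.9 and 31.1 CPM in the other sgBap1-CCl4 livers.

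NTC-CCl4 liver 3 had the highest counts of Mpo (19) and Elane (8, shared with sgBap1-CCl4 liver 2), whereas NTC-CCl4 liver 2 had the highest counts of Ngp, Ltf and Camp. Prtn3 was highest in NTC-CCl4 livers 1 and 3, at 16.8 and 17.1 CPM, against 8.42 CPM in NTC-CCl4 liver 2. NTC-CCl4 liver 1 had no Mpo count and 3 Elane counts.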
